A study of Mus musculus with 2 samples.

Results

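Among the ATAC-seq peaks of EHMT2-dTAG mESCs, 1350 were strong, lay away from gene starts and sat in repeat-masked sequence. ATAC-seq marks accessible DNA by the cuts of the transposase Tn5. A peak was counted when it lay on chromosomes 1 to 19, had a −log10 q-value of at least 10, and had its summit more than 5 kb from any annotated gene start but at most 100 kb from the start of a protein-coding gene. In addition, at least 90% of the window of 250 bp on either side of the summit had to be soft-masked, that is, marked as repeats in the reference. The members were thus chosen by their measured q-values as well as by position and sequence, so their q-values, fold enrichments and fragment numbers are given as descriptions. These 1350 members were drawn from 116782 peaks in the whole list, and they made up 17.8% of the 7578 strong distal peaks on the autosomes. The members were compared with 2882 strong distal peaks that met the same limits but had at most 10% masked bases, called unique distal peaks here.

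The cells were EHMT2-dTAG-mcherry mouse embryonic stem cells, derived from the KH2 line, of hybrid BL6/129 background, in which the endogenous EHMT2 carries an FKBP12 F36V degron tag for depletion with dTAG-13. The only treatment was DMSO, the solvent of dTAG-13, for 24 h, so the tagged EHMT2 had not been depleted, and no depleted or wild-type group enters these values. The peaks of 2 independent clones, with 50000 cells each, were deposited as 1 merged list, so the values carry no spread between clones and all results below are descriptions without a test. Of 8 stem cell genes, 6 had a peak within 500 bp of their start. Fold enrichments were 15.9 at Zfp42 and 9.57 at Tfcp2l1, 2 genes of naive pluripotency. They were lower at Klf4 (5.68), Sox2 (5.22), Nanog (4.125) and Pou5f1 (2.83). Esrrb and Fgf4 had none there. Peaks also lay at 2 of 6 fibroblast genes, 4 of 4 neural genes and 2 of 4 endoderm genes, with 6.59 at Twist1 (fibroblast) and 7.62 at Neurod1 (neural). These starts thus do not by themselves set stem cells apart.

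Much of the mouse genome descends from transposable elements. LINE-1 elements copy themselves through RNA, and a full-length copy holds a promoter at its 5′ end, made in the mouse of short repeated units called monomers, followed by 2 reading frames, of which the second encodes the reverse transcriptase. Elements with long terminal repeats (LTRs) carry the same promoter sequence at both ends, and recombination between these ends leaves single LTRs behind. EHMT2, also known as G9a, places methyl groups on lysine 9 of histone H3, a mark of repressed chromatin. No annotation of repeat names was used here, so the groups below are described by their own sequence, and any likeness to a known element rests on layout alone.

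Most members belonged to a few families of related sequence. When the windows were joined at 80% identity over at least 50% of their length, 1287 members (95.3%, Wilson 95% interval 94.1 to 96.3%) fell into 7 families of at least 10 members, and 34 had no relative. Family 1 alone held 1153 members (85.4%), and families 2 to 7 held 33, 32, 28, 18, 13 and 10. At 90% identity, family 1 separated into group 1a with 643 members, group 1b with 396 and group 1c with 103. At the limit of 80%, groups 1a and 1b were joined by 12 pairs of windows only, with a median identity of 81.3%, groups 1a and 1c by 2 pairs and groups 1b and 1c by 0. The joined pairs within groups 1a, 1b and 1c had median identities of 93.1%, 93.6% and 96.9%.

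The sequences that carry these groups are shown from mm10, each centred on the summit of the named member. For groups 1a, 1b and 1c, the stretch is as long as the most frequent spacing of the repeated unit in the group, and it reads along the strand of the downstream reading frame. In group 1a, capitals mark the ETS motif (CCGGAAG) and the YY1 motif (CAAGATGGC), both on the opposite strand of the one printed.
Group 1a (chr1:106854827-106855038, minus strand): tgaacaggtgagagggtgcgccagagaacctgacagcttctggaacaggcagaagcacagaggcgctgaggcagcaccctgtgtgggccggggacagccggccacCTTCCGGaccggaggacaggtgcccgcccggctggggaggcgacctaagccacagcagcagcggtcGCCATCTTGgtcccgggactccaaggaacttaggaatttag
Group 1b (chr12:36199378-36199585, plus strand): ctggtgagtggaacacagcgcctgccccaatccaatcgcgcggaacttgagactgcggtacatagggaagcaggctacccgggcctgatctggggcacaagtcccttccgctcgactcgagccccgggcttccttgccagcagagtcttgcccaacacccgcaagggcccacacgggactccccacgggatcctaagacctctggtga
Group 1c (chr14:88374343-88374546, minus strand): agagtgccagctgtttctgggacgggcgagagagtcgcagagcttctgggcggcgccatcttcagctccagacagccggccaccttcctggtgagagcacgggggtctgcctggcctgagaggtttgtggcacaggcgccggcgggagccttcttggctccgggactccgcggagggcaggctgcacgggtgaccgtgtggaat
For families 3 and 5, 50 bp on either side of the summit are shown with the octamer (ATTTGCAT) and the Sox motif (CCATTGT) in capitals, again as their reverse complements.
Family 3 (chr17:94687583-94687683, plus strand): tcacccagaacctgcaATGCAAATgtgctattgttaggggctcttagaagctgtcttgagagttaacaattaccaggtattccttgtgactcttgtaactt
Family 5 (chr3:103840308-103840408, plus strand): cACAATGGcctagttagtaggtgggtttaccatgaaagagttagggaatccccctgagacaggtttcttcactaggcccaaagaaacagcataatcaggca
The printed units of groups 1a, 1b and 1c held 12, 13 and 15 CpG dinucleotides, whereas the shorter stretches of families 3 and 5 held 0. The group 1a member lay between genes 6240 bp from the start of Serpinb5, with a fold enrichment of 11.7 from 52 fragments over its summit. The group 1b member lay between genes nearest to Bzw2, with a fold enrichment of 9.51 from 26 fragments. The group 1c member lay between genes nearest to Pcdh20, with 14.0 from 50 fragments. The family 3 member lay between genes nearest to Mettl4, with 10.5 from 54 fragments, and the family 5 member lay in an intron of Bcl2l15, with 8.97 from 32 fragments.

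The accessibility of the members spanned a wide range. Fold enrichment divides the number of fragments over the summit by the local background, after 1 is added to both. It had a median of 9.40 with quartiles of 8.05 and 10.9, and it reached 31.2. The fragment number itself, solved from this ratio together with its p-value, had a median of 32 with quartiles of 23 and 45, from 15 to 180. The unique distal peaks had a median fold enrichment of 8.27 and a median of 26 fragments with quartiles of 20.3 and 37, so both classes overlapped over nearly their whole range. The local background was alike, at a median of 2.31 fragments for members and 2.28 for unique distal peaks. Peak widths had medians of 957 and 838 bp. The −log10 q-values, which chose the members, had a median of 22.5 and reached 199.6.

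Groups of members differed in level. Group 1a had a median of 42 fragments with quartiles of 30 and 50, group 1c had 36 with quartiles of 26 and 48.5, and group 1b had 25 with quartiles of 20 and 30. Families 2 to 7 had medians of 32, 23, 31.5, 29, 34 and 22. Among members whose median stretch of 100 bp occurs at 1 place of the genome only, the medians were 27 in group 1a (n = 97), 27 in group 1b (n = 85) and 27.5 in group 1c (n = 10), so the gap between the groups was not seen there. Because reads that match several copies equally well were placed at random, a value at a repeated window is shared among copies, and the part of this placement in the levels was not tested.

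**Figure D1:**
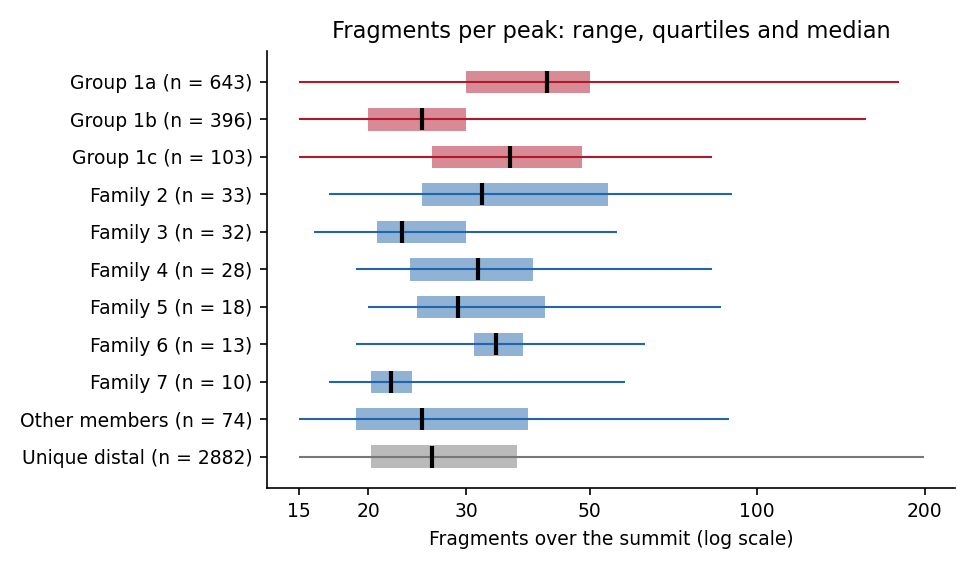
Fragments over the summit (x axis, log scale) for each group or family of members, the 74 other members and the 2882 unique distal peaks. Lines span the lowest to the highest peak, boxes the quartiles and black ticks the median; group 1a has the highest median at 42, and the boxes of most groups overlap that of the unique distal peaks.

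At the thresholds, the members grade into the peaks left out. The members of lowest −log10 q-value had 10.04, 10.04 and 10.05, with 16, 16 and 20 fragments, and the next masked distal peaks below had 9.99, 9.97 and 9.95, with 19, 18 and 15 fragments. At the limit on masking, the 3 members looked at had 90.02% masked bases and the 3 peaks looked at just outside had 89.8%. By masked bases, the number of strong distal peaks fell gradually from 2882 below 10%, through 1297 at 10 to 20% and 629 at 20 to 30%, to 151 at 70 to 80%. It was 215 at 80 to 90% and rose to 1350 at 90% or more. The share of masked windows among distal peaks was 5.57% for −log10 q-values under 5, 5.77% from 5 to 10, 12.3% from 10 to 20, 28.6% from 20 to 50 and 9.06% at 50 or more. Repeats were thus most frequent at intermediate strength, and 31 of 342 distal peaks of the strongest class were members.

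The sequence of the members was GC-rich and held many CpG sites. The median GC content of the window was 62.1% in members and 53.3% in unique distal peaks, and the median number of CpG dinucleotides was 26 and 11. Groups 1a, 1b and 1c had medians of 27, 28 and 34 CpG dinucleotides and family 2 had 20. Families 3 to 7 were different, with medians of 9, 8, 2, 8 and 5 CpG dinucleotides and GC contents between 41.3% and 45.1%. Over all 1350 members, fragment number and GC content had a Spearman's rho of 0.44 and a Pearson's r of 0.21. These points share 1 pool of libraries and, in large families, much of their sequence.

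Most windows were present more than once in the genome. The median stretch of 100 bp, the read length, was found unchanged at more than 1 place of mm10 in 1044 members (77.3%, Wilson 95% interval 75 to 79.5%) and in 14 unique distal peaks (0.486%, 0.29 to 0.814%). The median number of places was 72 in group 1a, 43 in group 1b and 70 in group 1c. It was 1 in families 2, 5 and 7, 2 in family 3, 6.5 in family 4 and 9 in family 6, so members of families 2, 5 and 7 could mostly be told apart by single reads. The highest number, 2228, belonged to a member at chr4:88054904-88055316, nearest to Mllt3 and outside the families of at least 10 members. Of all members, 306 had a median of 1, and 1 of them was the group 1a peak at chr1:5992946-5993560, nearest to Npbwr1, which encodes a neuropeptide receptor. That peak had a fold enrichment of 9.27 from 22 fragments, with 52.2% of its stretches of 100 bp at 1 place only.

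**Figure D2:**
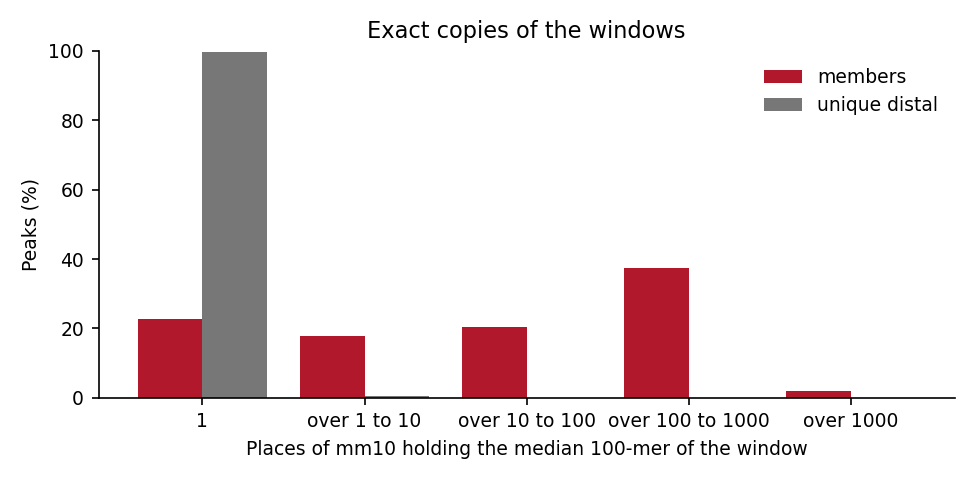
Share of peaks (y axis, percent) by the number of places of mm10 that hold the median 100-base stretch of the window (x axis), for members in red and unique distal peaks in grey. 22.7% of members and 99.5% of unique distal peaks have 1 place, and 37.3% of members have over 100 to 1000 places.

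Many members of groups 1a, 1b and 1c had the layout of full-length LINE-1 elements. A reading frame without stop of at least 1000 codons lay within 8 kb of the summit in 824 members (61.0%, Wilson 95% interval 58.4 to 63.6%), against 27 unique distal peaks (0.937%, 0.645 to 1.36%). Such frames were found at 71.5% of group 1a, 66.7% of group 1b and 81.6% of group 1c, and of these 808 frames, 601 were exactly 1300 codons long. In 799 of 808 the frame began downstream of the summit along its own strand. It began at a median of 1643 bp from the summit in group 1a, 1698 bp in group 1b and 1745 bp in group 1c. A shorter frame of at least 300 but under 1000 codons preceded it in 736 of these 799 members (92.1%), at a median of 504 bp from the summit and with a median length of 384 codons. These 736 peaks, of 1142 in groups 1a to 1c, had both frames in this order, where a LINE-1 element has its promoter ahead of the first. At the others, this layout was not found within the limits used. Families 3 to 6 had no frame of 1000 codons, and families 2 and 7 had 2 and 1.

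**Figure D3:**
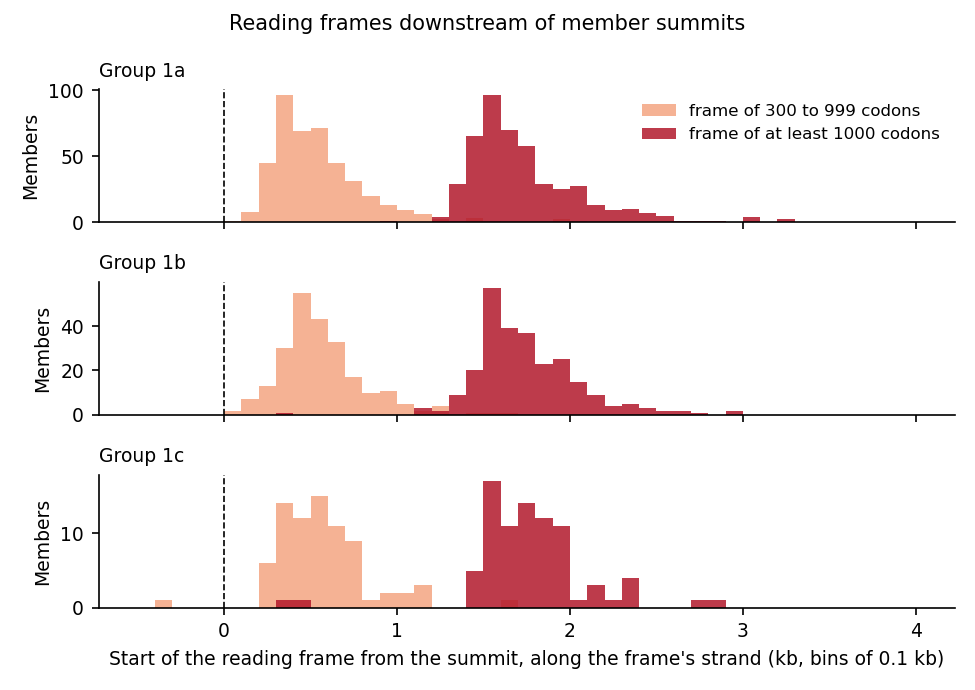
Number of members (y axis) by the start of the reading frame relative to the summit (x axis, kb along the strand of the frame) for groups 1a, 1b and 1c, with frames of at least 300 but under 1000 codons in light red and of at least 1000 codons in dark red; the dashed line is the summit. The shorter frames begin near 504 bp and the long frames near 1668 bp (medians over the 3 groups).

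Repeated units lay around the summits of the same groups. A second match of the window on the same strand within 1 kb, at 90% identity or more over at least 100 bp, was found for 964 members (71.4%, Wilson 95% interval 68.9 to 73.8%) and 45 unique distal peaks (1.56%). The most frequent spacing was 212 bp in group 1a, where 567 of 579 members with a repeated unit at 80% identity or more were within 5 bp of it. It was 204 bp in group 1c (70 of 100 members) and 208 bp in group 1b, where spacing varied and 169 of 394 members were within 5 bp. Family 2 also had such units, in 32 of 33 members at 80% identity but in 4 of 33 at 90%. Their most frequent spacing was 117 bp, with 19 of 32 members within 5 bp of it. Families 3, 5, 6 and 7 had none, and family 4 had 1.

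Families 3 and 4 held pairs of like sequence far apart, as the 2 LTRs of 1 element would be. A same-strand match more than 1 kb and up to 12 kb away was found for 9 of 32 members of family 3 and 15 of 28 of family 4. A member can have several matches. The offset was 5000 to 5300 bp for 9 of 10 matches in family 3 and for 10 of 15 in family 4, with medians of 5104 and 5220 bp. The other 23 members of family 3 and 13 of family 4 had no such partner at this identity. Matches at this distance were also found for 29 members of group 1a, 20 of group 1b and 9 of group 1c, with median offsets of 1272, 1327 and 8897 bp and none between 5000 and 5300 bp. Families 5, 6 and 7 showed neither repeated units nor distant partners.

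Short motifs, searched as exact letters, divided the groups. The YY1 motif, bound by a zinc finger factor found at many promoters, was present in 596 of 643 windows of group 1a (92.7%) and in none of groups 1b and 1c. It occurred in 1.08% of unique distal peaks and in 3.51% of all autosomal peaks. In group 1a the motif nearest to the summit was at a median of 66.5 bp. Near matches of a motif were not counted. The printed unit of group 1c holds gccatcttc, which differs only in its last letter from the YY1 motif as printed in group 1a. Absence of the exact letters is thus not absence of a related site. The ETS motif was present in 64.9% of group 1a, 27.2% of group 1c, 30.3% of family 2 and none of group 1b, against 8.4% of unique distal peaks and 6.78% of all peaks. Group 1b was low in most of the 11 motifs searched. Its most frequent was the E-box CACGTG, in 17.7% of its windows against 8.24% of all peaks, at a median of 202 bp from the summit.

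The small families carried other motifs. The octamer, recognised by POU factors such as Pou5f1 (OCT4), was present in 32 of 32 windows of family 3, at a median of 39.5 bp from the summit, and in 11 of 13 of family 6. It was found in 5.24% of unique distal peaks and 4.13% of all peaks. The Sox motif was present in 12 of 18 windows of family 5 and 10 of 10 of family 7, against 7.81% and 7.79%. The E-box was present in 14 of 28 windows of family 4, at a median of 191 bp. Over all members, the octamer was present in 3.33%, the Sox motif in 2.37% and the E-box in 7.11%, against 5.24%, 7.81% and 9.3% of unique distal peaks, whereas YY1 and ETS were more frequent in members, at 44.4% and 33.8%. The Klf motif (CCCCACCC) was present in 0.593% of members and 16.3% of unique distal peaks, the AP-1 motif (TGANTCA) in 0.963% and 15.2%, and the Esrrb motif (TCAAGGTCA) in 0.0741% and 1.94%. The CTCF motif, the NRF1 motif and the CRE motif (TGACGTCA) were found in 0 members and in 1.39%, 0.486% and 1.28% of unique distal peaks. Both strands were searched, no motif contained another, and windows of 1 family share their letters by descent, so they are not independent occurrences.

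**Figure D4:**
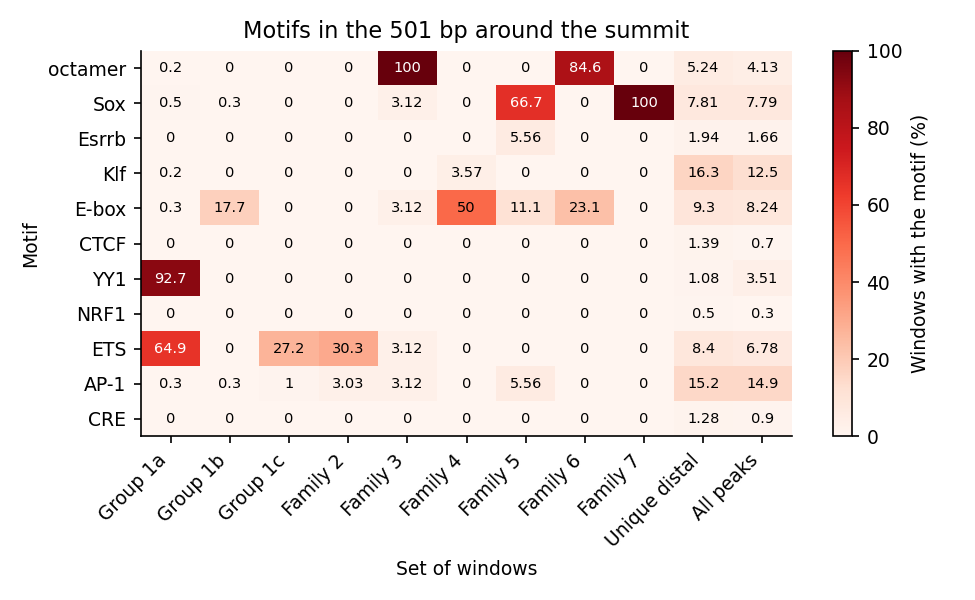
Percent of windows with each of 11 motifs (rows) in the groups and families of members, the unique distal peaks and all autosomal peaks (columns); colour and number give the percent. YY1 stands out in group 1a at 92.7%, the octamer in families 3 and 6 at 100% and 84.6%, and Sox in families 5 and 7 at 66.7% and 100%.

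The position of the summits on the shared sequence was then compared. Windows centred on summits were joined where they overlapped in sequence, so part of any closeness follows from how the families were made. On the reference copy of each group, the member with most relatives, 83.9% of placed summits of group 1a, 42.2% of group 1b and 70.9% of group 1c lay within 100 bp of the most frequent position. The shares were 75.8% in family 2, 90.6% in family 3, 96.4% in family 4, 83.3% in family 5, where 12 of 18 members could be placed, 92.3% in family 6 and 90% in family 7. For a range of 50 bp, the most frequent position was found anew and could differ. From the summit of the reference copy, it went from -50 to 287 bp in group 1b and from 109 to 150 bp in group 1a. The shares within 50 bp were 46.3%, 29.5% and 47.6% in groups 1a, 1b and 1c, 45.5% in family 2, 50% in family 5 and 61.5% in family 6. They were 78.1%, 82.1% and 80% in families 3, 4 and 7. The 100 bp on either side together span nearly a whole repeated unit of groups 1a to 1c, so a summit there may be placed on a neighbouring unit.

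Members were then set against copies of the reference window of their group, a search added after the families had been seen. Each reference window is itself a member, and members less like it do not count as its copies. Within the limits on gene distance, 469 copies of the group 1a window held a strong peak, against 643 members of group 1a. The shares thus describe copies close to the reference window only. Matches up to 1 kb apart were merged into 1 copy, and a summit up to 100 bp beyond its ends counted as held. The reference window of group 1a had 1815 autosomal copies of at least 90% identity over at least 250 bp. Of these, 1504 (82.9%) held the summit of a peak and 1450 (79.9%) one with a −log10 q-value of at least 10. For group 1b the shares were 73.2% and 42.8% of 2840 copies, and for group 1c 80.7% and 62.4% of 535 copies. Peaks were also frequent on copies of the small families, from 42.4% of 236 copies in family 6 to 77.0% of 243 in family 3, and strong peaks were found on 48.4% of copies in family 2, 36.2% in family 3, 25.8% in family 4, 47.1% in family 5, 12.3% in family 6 and 6.07% of 280 copies in family 7. At a required identity of 95%, which also shortens or splits matched stretches, family 6 had any peak on 71.1% and a strong peak on 32.5% of 83 copies, and family 3 had a strong peak on 57.3% of 103. The limits on gene distance left 602, 925 and 195 copies in groups 1a, 1b and 1c. Among these, copies with a reading frame of 1000 codons within 5 kb held strong peaks more often than the others, at 81.5% of 449 against 67.3% of 153 in group 1a, 60.0% of 408 against 33.1% of 517 in group 1b, and 79.0% of 105 against 35.6% of 90 in group 1c. This range misses frames that begin further downstream, so the others can include copies with such a frame. Among members, the share with a frame was 61.0% within 8 kb and 50.9% within 5 kb. Peak calls on near-identical copies share reads, so copies are not independent of each other.

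**Figure D5:**
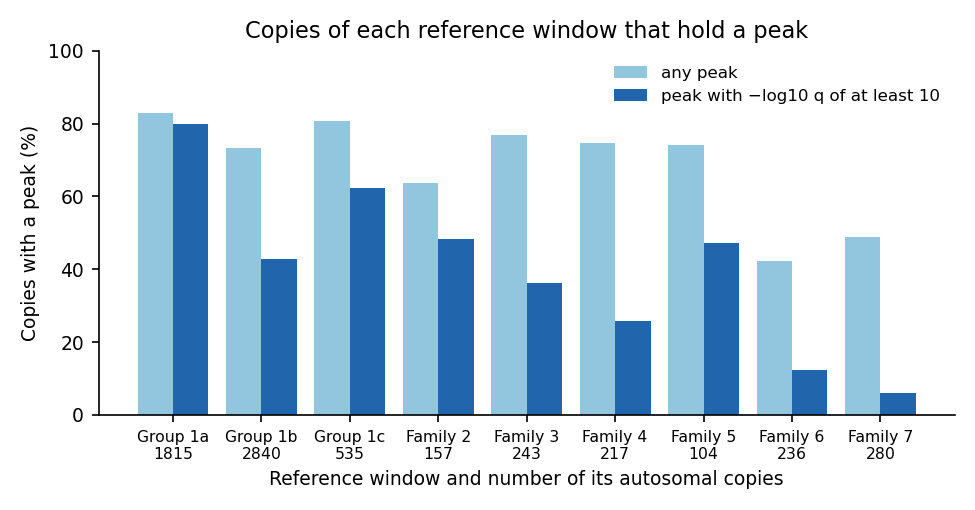
Percent of autosomal copies of each reference window (y axis) that hold any peak (light blue) or a peak with a −log10 q-value of at least 10 (dark blue); the number under each name is the number of copies. Any peak is found on 42.4% to 82.9% of copies, and a strong peak on 6.07% (family 7) to 79.9% (group 1a).

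The members of highest fold enrichment were not typical of the families. The 10 highest ranged from 17.8 to 31.2 and were narrow, at 365 to 458 bp. The first was a group 1b peak at chr17:54258000-54258390 between genes, nearest to Slc5a7, which encodes a choline transporter, with a fold enrichment of 31.2 from 157 fragments. The next were group 1a peaks in introns, at chr5:72542336-72542732 in Nfxl1 with 30.1 from 129 fragments, and at chr11:90584703-90585160 in Stxbp4 with 29.5 from 180 fragments, the most of any member. The other 7 belonged to no family of at least 10 members and lay nearest to Gpbp1 (fold enrichment 23.9), Olfr725 (22.6), Itih5 (19.8), Akp3 (18.9), Qrsl1 (17.9), Daam1 (17.8) and Satb1 (17.8). These 7 had between 47 and 89 fragments. The highest fragment numbers in families 2 to 7 were 90 for a family 2 peak in an intron of Olfr56, 56 in family 3 nearest to Ndufaf6, 83 in family 4 in an intron of Sntb1, 86 in family 5 nearest to Gm8298, 63 in family 6 nearest to Birc2 and 58 in family 7 nearest to Ak4. In group 1c, the highest was 83 at chr2:136869574-136870499.

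Members lay mostly between genes. Summits were between annotated genes for 824 members (61.0%, Wilson 95% interval 58.4 to 63.6%), in an intron for 521 (38.6%) and in an exon for 5 (0.37%). Unique distal peaks were between genes in 34.7%, in introns in 48.5% and in exons in 16.8%. For group 1a to 1c members inside a protein-coding gene with a downstream frame of 1000 codons, the frame lay on the strand opposite to the gene in 198 of 278 (71.2%, 65.6 to 76.2%). The shares were 69.5% in group 1a, 75.9% in group 1b and 67.9% in group 1c. The same share over copies in genes without a strong peak was not computed, so this cannot be called particular to the members. Members were spread singly, with a median of 318174 bp to the nearest other member, and 45 had another within 10 kb.

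A member lay within 100 kb of the start of 2599 of 20807 autosomal protein-coding genes (12.5%), and a unique distal peak near 6404 (30.8%). No gene had more than 4 members in this range. The 7 genes with 4 were Ccdc7a, Ccdc7b, Cyp4a12b, Gm16223, Med30, Nalcn and Tlr4, none of which had a unique distal peak within 100 kb. Of 20 pluripotency genes, 2 had a member and 12 had a unique distal peak. These were Tfcp2l1, with a group 1b peak 39869 bp away (fold enrichment 8.81, 27 fragments), and Zfp42, with a peak of no large family 46779 bp away (5.76, 27 fragments). Of 19 genes of the two-cell stage, 4 had a member and 1 had a unique distal peak. The group 1b peaks near Obox3 and Usp17la had fold enrichments of 10.7 and 8.27, and the group 1a peaks near Tcstv3, a gene of the two-cell state in stem cell cultures, and Eif1a had 12.3 and 11.7. Of 15 genes for H3K9 methylation and its readers, 1 had a member and 7 had a unique distal peak. The member was a family 4 peak in an intron of Wiz itself, which encodes a zinc finger partner of EHMT2, with 7.49 from 27 fragments. Of 15 germ layer genes, 1 had a member and 11 had a unique distal peak. The member was the group 1a peak 62817 bp from Sox17, with 7.45 from 48 fragments. With so few genes per list, these shares of 10%, 21.1%, 6.67% and 6.67% are counts beside the 12.5% of all genes and no more.

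Density differed between regions. Members per Mb of sequenced bases ranged from 0.258 on chromosome 19 to 0.784 on chromosome 5, with a median of 0.546 over the autosomes. They made up 9.49% of the strong distal peaks of chromosome 19, 10.3% on chromosome 11 and 23.2% on chromosome 5. ECORDs are domains of neighbouring genes that rise together, here those of 2-cell-like cells (2CLCs), a rare state of stem cell cultures that resembles the two-cell embryo. They span 66.6 Mb of the autosomes, or 2.78% of the bases, and 58 members (4.3%) lay inside. This was 0.87 members per Mb inside and 0.555 outside, a ratio of 1.57, whereas unique distal peaks had 0.735 and 1.22, a ratio of 0.605. The members were uneven, since 29 of 86 autosomal domains held any and 13 lay in 1 domain of 2.66 Mb on chromosome 5. Of the 58, 24 belonged to group 1a, 15 to group 1b, 6 to group 1c and 5 to family 2. For the 5 chromosome 1 members of highest fold enrichment, EHMT2 binding sites in mESCs were looked up one by one. The summits of 3, all of group 1a, lay inside an EHMT2 site, among them those nearest to Plcl1 (fold enrichment 15.1) and Uchl5 (14.7). The summit nearest to Akp3 was 3541 bp from a listed site and that nearest to Actr3 was 12103 bp away. The list of EHMT2 sites is held in part only, so no share over all members or other peaks stands beside these 3 of 5. They are single look-ups and no result about the members.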

How the data were processed

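ATAC-seq peaks of 2 clones of DMSO-treated EHMT2-dTAG mESCs were used as deposited, in 1 list called on both clones merged. The authors trimmed reads with BBMap and aligned them to mm10 with STAR, writing reads with several best locations at 1 of them at random. Tool versions in the submitters' processing notes are STAR 2.7.10, Picard 2.26.0, SAMtools 1.14, bedtools 2.30.0 and MACS2 2.2.6. The authors' MACS2 values are a deposited fold enrichment (a ratio), −log10 p-values and −log10 q-values of the summit, and a deposited score, which was not used. Library totals were not analysed here.

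The fragment number over each summit was the whole number that gives both the fold enrichment and the p-value by the formulas of MACS2, within 0.01 of the −log10 p-value. It was found for 113777 of 113777 autosomal peaks. It holds the random placement of reads at repeats and the sum over clones, neither of which an interval from counts covers. Masking was read from the soft-masked GRCm38 FASTA of RefSeq, the same build as mm10, and genes from GENCODE vM21, which may differ from the release used by the study. Families were connected components of BLAST 2.17.0 matches (blastn, E-value at most 1e-10). Exact copies were counted on chromosomes 1 to 19, X and Y on both strands. ECORD and EHMT2 ranges came from the study's datasets. The list of EHMT2 sites is held in part only, so no overlap was computed over it.

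The members, gene lists and motifs were chosen with earlier results of these data known. Named members were fixed by rule as the 10 of highest fold enrichment, those with most fragments in each family, those at the extremes of copy number and at the thresholds, and 5 on chromosome 1. Named genes were those nearest to these, those with most members, and listed genes with a member. The members of the printed sequences, the group names within family 1, motif distances, strands relative to genes and the search of reference window copies were added later. For the printed sequences, the member with most relatives was taken that held the marked motifs, or a downstream frame in groups 1a to 1c, leaving out chromosome 18. No test was made, since a merged list holds no replicates. Wilson intervals cover counting error only. The calculations were tested on simulated data. Python 3.11.15, NumPy 2.4.6, pandas 2.3.3, SciPy 1.17.1, numba 0.67.0, networkx 3.6.1 and matplotlib 3.10.9 were used.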

Additional observations from a re-analysis of the deposited data

Results flagged for a closer look

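Chromosome X was outside the rule. On it, 197 of 371 peaks (53.1%) that met the other limits of strength and gene distance had at least 90% masked bases, or 1.2 per Mb, above the 0.784 per Mb of chromosome 5, the highest among the autosomes. Chromosome Y had 3 such peaks. The signal was singled out because it lies in peaks that the comparisons did not use.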

How the results depend on the processing

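No paired analysis was possible because the deposited list merges both clones and no result comes from a test; leaving out a clone was likewise not possible. Of 60 alternatives, 19 stayed within the 95% interval (1.5 times, for counts and ratios) and 41 moved. A change of direction was not scored. The number of members became 786 with the q-value limit raised to 20, 772 with masking read over 500 bp on either side of the summit, 836 within 50 kb of a protein-coding start and 3645 with no upper limit. Median fragments became 34 with fully masked windows and 27 without family 1. The share in families became 93.0% at 90% identity over 50% of the length and 91.2% at 80% over 80%. The share with more than 1 exact place became 92.8% with 50-mers, 58.7% with 150-mers and 70.7% within 100 bp of the summit. The share with a reading frame became 71.7% at 800 codons and 50.9% within 5 kb. The share with a second same-strand match within 12 kb was 73.9% at 90% identity and became 86.1% at 80%. The share between genes became 67.0% with protein-coding genes only, and the share of genes with a member became 6.33% within 50 kb. Within 100 bp of the summit, motif shares among members became 33.3% for YY1, 21.9% for ETS, 1.41% for the E-box, 1.33% for Sox, 0.296% for both Klf and AP-1, and 0% for Esrrb. The modal position was found anew for a range of 50 bp, and in group 1b it moved from -50 to 287 bp. Within 50 bp of it lay 46.3% of summits of group 1a, 29.5% of 1b, 47.6% of 1c, 45.5% of family 2, 82.1% of family 4, 50% of family 5 and 61.5% of family 6. Shares fall by construction in shorter ranges. Added after seeing the data, copies at 95% identity held strong peaks in 75.3%, 47.3% and 85.2% of cases for groups 1a, 1b and 1c, in 57.3%, 34.7% and 32.5% for families 3, 4 and 6, and in 33.3% and 100% for families 2 and 5, with 3 copies and 1 copy. Members with a median 100-base stretch at 1 place only had median fragments of 27, 27 and 27.5. The cause of the last shifts was not tested. Depth limits single peaks, since members rest on as few as 15 fragments.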

Other observations

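Weaker distal peaks in masked sequence were related to the members only in part. There were 2382 distal peaks with at least 90% masked bases and a −log10 q-value under 10, with a median of 7 fragments over the summit and a median GC content of 48.4%. Of these, 1500 (63.0%) matched a member at 80% identity over 50% of the window, and 882 matched none. The best match of 667 (28%) was a member outside the families of at least 10, and that of 550 (23.1%) was in family 1. The best match was in group 1a for 169, group 1b for 285, family 4 for 79 and family 7 for 79.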
